A study of Mus musculus with 16 samples.

Results

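Complement transcripts were followed in microglia, the macrophages that reside in the mouse retina, in oxygen-induced retinopathy (OIR) and in retinas without it (nonOIR). The genes were chosen by symbol: 3 chains of the C1q recognition molecule (C1qa, C1qb, C1qc), 4 secreted components of the cascade (C3, C4b, Cfb, Cfp) and 3 receptors for anaphylatoxins (C3ar1, C5ar1, C5ar2). Each symbol matched 1 row of the deposited table, so the 10 genes were 10 of 54532, and all 10 were among the 12496 genes with enough reads to be tested. The study sequenced 8 OIR and 8 nonOIR libraries. In the OIR model, mouse pups spend some days in raised oxygen, which halts vessel growth, and back in room air the poorly vascularised retina becomes hypoxic and sprouts abnormal vessels. All 16 libraries came from Cx3cr1CreERT2:Rosa26-tdTomato pups at postnatal day 17, and both groups received tamoxifen at postnatal day 1 (5 µl at 21 mg per ml, under the skin), which turns on the red reporter in cells with an active Cx3cr1 promoter. Cells were sorted as positive for the reporter and CD11b, low for CD45 and negative for Ly6C and Ly6G. Whether each library is a separate animal is not stated in the labels, so p-values measure the spread between these libraries, which may be partly technical.

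Complement is a cascade of proteins that tags cells, debris and microbes for removal and calls in immune cells. C1q starts the classical pathway, C4 and C3 are the proteins that are cleaved and attached to surfaces, factor B and properdin drive the alternative pathway, and the small fragments C3a and C5a signal through receptors on leukocytes. In the developing and injured retina and brain, microglia are the main source of C1q, and they use complement receptors when they prune synapses and clear dying cells.

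The gene counts of a library summed to between 20.8 and 30.0 M (mega-counts) in OIR and between 13.6 and 28.0 M in nonOIR. Levels are given as CPM (counts per mega-count of the library) after TMM scaling, which adjusts library totals for a few dominant genes. The labels assign 5 OIR and 5 nonOIR libraries to lane 1 and 3 OIR and 3 nonOIR libraries to lane 2, and 24.8% of tested genes differed between the lanes with group in the fit, so the lanes are shown beside each other throughout. Of the 12496 genes, 10.9% passed an adjusted p of 0.05 in the OIR comparison (edgeR quasi-likelihood test, Benjamini-Hochberg adjusted). OIR had 798 higher and 570 lower genes (73.7% of calls were higher, against 58.3%, when library totals alone were used for scaling). All 10 microglial marker genes had reads in every library. Their summed level ran from 38159 to 63417 CPM in OIR and from 65173 to 80702 CPM in nonOIR, and 4 of the 10 fell, Tmem119 and P2ry12 among them. The monocyte marker Ly6c2 was at 0 counts in all 16 libraries, and 8 monocyte markers summed to 17.5 to 33.0 CPM in OIR and 12.1 to 26.1 CPM in nonOIR, with Ms4a4c higher in OIR. Red cell transcripts (6 genes, led by Hbb-bs) summed to 1.88 to 292.5 CPM in OIR and 0 to 28.6 CPM in nonOIR. In bulk RNA such as this, fewer cells of a type and less RNA per cell cannot be told apart.

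Of the 10 complement genes 5 rose in OIR (C4b, Cfb, Cfp, C3ar1 and C5ar1), 1 fell (C5ar2) and 4 did not pass (C1qa, C1qb, C1qc and C3). In the same fit, 6.39% of all tested genes rose and 4.56% fell. The median log2 fold change of the 10 genes was 0.48, beside -0.03 over all genes tested. This median and the count of 5 include Cfb and Cfp, which were kept for testing by their OIR values. The 10 genes were chosen with earlier results of these data known. Count and median therefore describe these genes and do not test the set. The groups did not overlap for 1 of the 10 genes, C3ar1, where 1.34% of all tested genes had every OIR library above every nonOIR library, 0.688% had every one below, and 2.02% had no overlap in either direction.

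**Figure D1:**
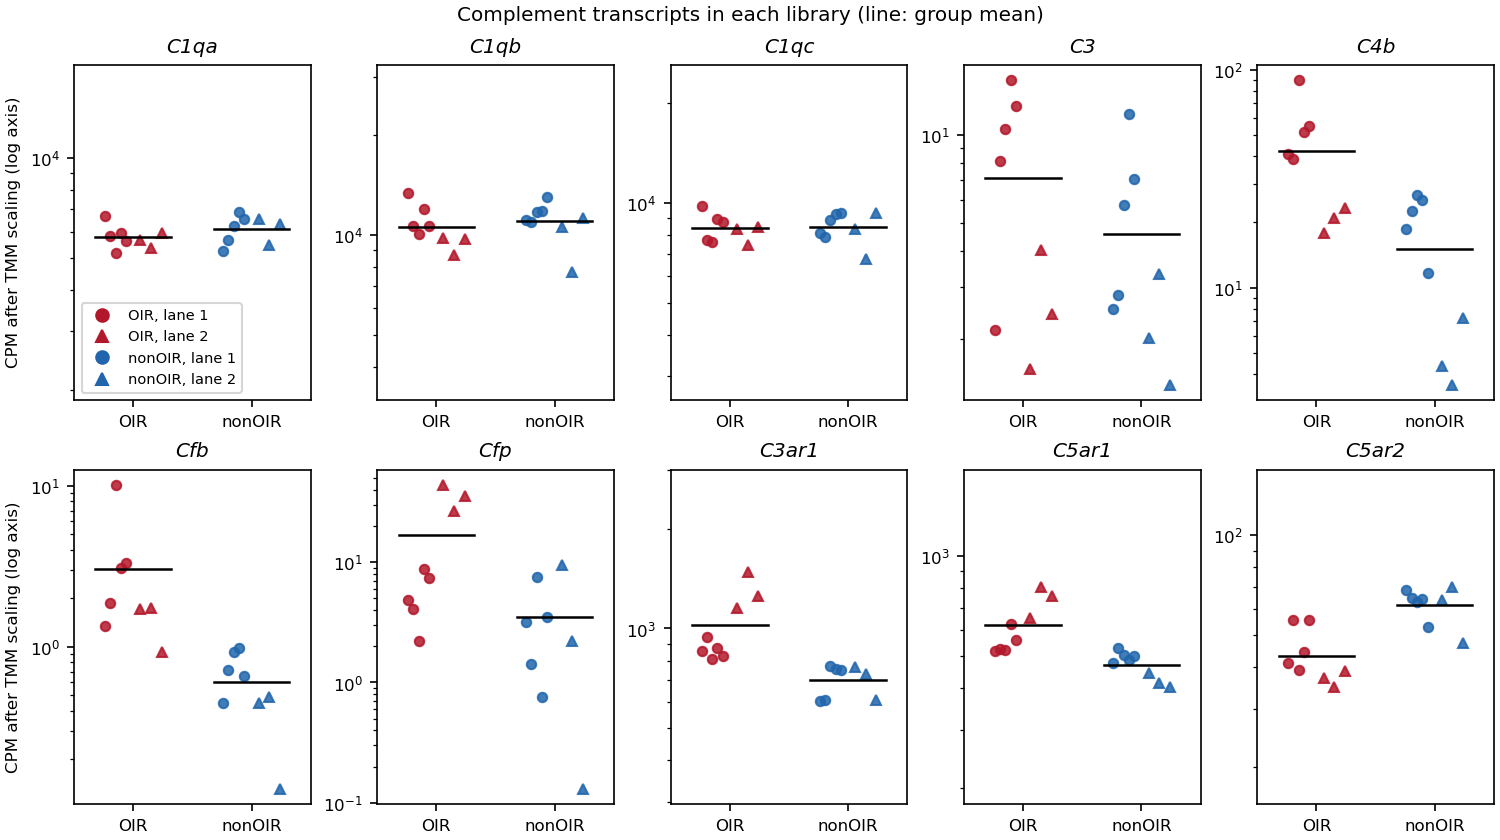
CPM of each complement gene in each library, on log axes that differ between panels, for 8 OIR and 8 nonOIR libraries. Circles are lane 1, triangles lane 2 and lines the group means. The C1q chains overlap between the groups, C3ar1 is the gene whose groups do not overlap, and the 3 OIR libraries of lane 2 stand highest for Cfp, C3ar1 and C5ar1.

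The C1q chains were among the most abundant transcripts of these cells, and no difference between OIR and nonOIR was detected for any of them. C1qb ranked 6 of the 12496 tested genes by mean CPM, C1qc 12 and C1qa 18, and the 3 together took 2.53 ± 0.205% of the reads of OIR libraries and 2.49 ± 0.213% of those of nonOIR libraries (SD, n = 8 each). C1qb had 8703, 10347 and 13340 CPM in the lowest, median and highest OIR library, against 7746, 11177 and 13057 CPM in nonOIR. C1qa ran from 5160 to 6668 CPM in OIR (median 5739) and from 5232 to 6881 CPM in nonOIR (median 6275). C1qc ran from 7490 to 9792 CPM in OIR (median 8402) and from 6767 to 9330 CPM in nonOIR (median 8603). The ranges overlapped almost fully for all 3 chains. The log2 fold changes were -0.08 ± 0.07 for C1qa (edgeR adjusted p = 0.526), -0.06 ± 0.10 for C1qb (edgeR adjusted p = 0.785) and -0.01 ± 0.08 for C1qc (edgeR adjusted p = 0.936, each ± SE). C1q is assembled from equal numbers of its A, B and C chains. CPM is not divided by gene length, so a share of CPM is not a share of transcript or chain numbers. The annotated exons of C1qc (1.931 kb) are longer than those of C1qa (1.040 kb) and C1qb (1.088 kb). The C1qb transcript made up 42.7 ± 1.88% of the CPM of the 3 chains in OIR and 42.9 ± 2.27% in nonOIR (SD, n = 8 each). This share lay lower in lane 2 than in lane 1 in both groups: it was 43.9 ± 0.931% in OIR and 44.3 ± 1.28% in nonOIR in lane 1 (n = 5 each), and 40.6 ± 0.502% in OIR and 40.7 ± 1.66% in nonOIR in lane 2 (n = 3 each).

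The C1q genes are neighbours on the minus strand of mouse chromosome 4 (mm10, GENCODE M21): C1qb at chr4:136880129-136886187, C1qc at chr4:136889804-136893065 and C1qa at chr4:136895917-136898803. Within groups C1qb and C1qc moved together (Pearson r = 0.87 over 16 libraries after the group means were subtracted, and 0.93 after group-by-lane means were). With C1qa, r was 0.64 for C1qb and 0.78 for C1qc, and 0.79 and 0.81 after group-by-lane means were subtracted. The promoters of C1qb (chr4:136886151-136886450) and C1qc (chr4:136892865-136893164) are printed because these genes are adjacent and vary together at a high level. Sequences are RefSeq's, on GRCm38.p6, from 250 bases before to 50 after the start of the gene, 5′ to 3′ on the minus strand, with the match to a searched motif in capitals. Here the capitals mark GAGGAA, searched on both strands, the core bound by the myeloid factor PU.1, found in 28.3% of all 32851 promoters of this length. Such a match is a description of the letters and does not show binding.
C1qb promoter: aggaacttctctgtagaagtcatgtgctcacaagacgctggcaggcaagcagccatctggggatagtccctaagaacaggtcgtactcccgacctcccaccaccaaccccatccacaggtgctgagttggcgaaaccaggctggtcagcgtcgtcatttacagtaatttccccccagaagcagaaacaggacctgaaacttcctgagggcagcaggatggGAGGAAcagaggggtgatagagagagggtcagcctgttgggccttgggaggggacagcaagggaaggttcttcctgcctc
C1qc promoter: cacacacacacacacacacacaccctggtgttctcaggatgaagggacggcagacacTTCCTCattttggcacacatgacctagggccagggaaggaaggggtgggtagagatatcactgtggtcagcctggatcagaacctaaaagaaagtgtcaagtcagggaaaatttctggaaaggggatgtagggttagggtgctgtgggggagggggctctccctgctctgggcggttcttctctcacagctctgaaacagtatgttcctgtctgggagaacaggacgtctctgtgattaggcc

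C4b, the component cleaved after C1 is activated, rose 2.83-fold in OIR. It had 17.7, 40.1 and 89.2 CPM in the lowest, median and highest OIR library, against 3.58, 15.1 and 26.7 CPM in nonOIR (log2 fold change 1.5 ± 0.42 SE, edgeR adjusted p = 0.0277). All 8 OIR libraries lay above the nonOIR median and 5 above the nonOIR maximum. The lanes stood apart at different levels: in lane 1 C4b averaged 55.3 ± 20.2 CPM in OIR and 20.9 ± 6.02 CPM in nonOIR (SD, n = 5 each), and in lane 2 it averaged 20.6 ± 2.78 CPM in OIR and 5.07 ± 1.93 CPM in nonOIR (SD, n = 3 each). Within each lane the groups did not overlap. How many of all tested genes separate in this way within a lane was not counted, and with 3 libraries in a group it is a weak sign. C4b passed in lane 1 (2.66-fold, edgeR adjusted p = 0.0127), in lane 2 (4.20-fold, edgeR adjusted p = 0.00252) and with lane as a covariate (3.08-fold, edgeR adjusted p = 5.9e-05). In the fit without lane the call was lost without OIR replicate 3 (log2 fold change 1.25, edgeR adjusted p = 0.0621), and also without nonOIR replicate 5 (1.46, edgeR adjusted p = 0.0509) or nonOIR replicate 8 (1.40, edgeR adjusted p = 0.0508), and with no low-count filter (1.52, edgeR adjusted p = 0.0931). C4b (chr17:34728380-34743882, minus strand) has a near-identical neighbour, C4a: 34.6% of the 50-base windows of C4b transcripts, the read length used, also occur in C4a transcripts, so its counts are uncertain. C4a itself had 1 count over the OIR libraries and 15 over the nonOIR libraries. Lane also divided Apoe, a lipid carrier of microglia and glia, which ran from 7450.5 to 19202.5 CPM in lane 1 and from 912.9 to 2109.1 CPM in lane 2.

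C3, the central component on which the pathways converge, was low and varied widely within each group. It had 1.57, 6.08 and 15.4 CPM in the lowest, median and highest OIR library, against 1.39, 3.08 and 11.8 CPM in nonOIR. The groups overlapped over nearly the whole range and the gene did not pass (log2 fold change 0.63 ± 0.51 SE, edgeR adjusted p = 0.481). C3 was lower in lane 2 than in lane 1 (0.321-fold with group in the fit, edgeR adjusted p = 0.00728). Within lane 1 it averaged 9.75 ± 5.01 CPM in OIR and 5.99 ± 3.79 CPM in nonOIR (SD, n = 5 each), and within lane 2 it averaged 2.68 ± 1.25 CPM in OIR and 2.25 ± 0.996 CPM in nonOIR (SD, n = 3 each), and it passed in neither (edgeR adjusted p = 0.541 in lane 1 and 0.775 in lane 2). C3 (chr17:57203970-57228136, minus strand) shared no 50-base window with another annotated gene.

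Cfb, which encodes factor B, the protease of the alternative pathway, rose 5.01-fold in OIR but stayed at a very low level. It had 0.924, 1.80 and 10.2 CPM in the lowest, median and highest OIR library, against 0.130, 0.574 and 0.985 CPM in nonOIR (log2 fold change 2.32 ± 0.52 SE, edgeR adjusted p = 0.00759). Of the 8 OIR libraries 7 lay above the highest nonOIR library. OIR replicate 3 stood far above the others at 10.2 CPM, and without it the log2 fold change was 1.73 (edgeR adjusted p = 0.0212). The call was kept when any single library was left out, and in lane 1 (5.28-fold, edgeR adjusted p = 0.0403), but not in lane 2 (4.16-fold, edgeR adjusted p = 0.14). These values rest on few reads, 668 in all OIR libraries together and 104 in all nonOIR libraries together, and 7 of the 8 nonOIR libraries reached the level asked for by the low-count filter, so the gene was kept by its OIR values. Cfb (chr17:34856374-34862518, minus strand) overlaps a predicted gene, Gm20547, with which it shares 79.5% of its exonic bases and 73% of its 50-base windows. Gm20547 was listed at 0 counts in every library. The sources used here do not say how reads in shared exons were counted, so the level of Cfb may be understated.

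Cfp encodes properdin, the protein that stabilises the alternative pathway convertase, and rose 4.74-fold in OIR, with wide spread. It had 2.21, 8.02 and 44.1 CPM in the lowest, median and highest OIR library, against 0.130, 2.69 and 9.50 CPM in nonOIR (log2 fold change 2.24 ± 0.70 SE, edgeR adjusted p = 0.0458). The 3 highest values were the 3 OIR libraries of lane 2, at 44.1, 26.6 and 35.6 CPM, and the 5 OIR libraries of lane 1 all lay within the nonOIR range, between 2.21 and 8.71 CPM. Within lane 1 Cfp did not pass (1.67-fold, edgeR adjusted p = 0.569) and within lane 2 it did (9.29-fold, edgeR adjusted p = 0.0429). The test of the interaction of lane and group did not pass (edgeR adjusted p = 0.344). The call was lost with lane as a covariate (3.13-fold, edgeR adjusted p = 0.0767), with no low-count filter (edgeR adjusted p = 0.13) and in limma-voom (adjusted p = 0.128). As for Cfb, 7 of the 8 nonOIR libraries reached the filter level, so Cfp was kept by its OIR values. Leaving out any 1 of 10 libraries also ended it: OIR replicates 4, 6, 7 and 8 and nonOIR replicates 1, 2, 4, 5, 7 and 8 (log2 fold change between 1.89 and 2.35, edgeR adjusted p between 0.0528 and 0.11). Markers of border and perivascular macrophages varied beside it. The summed level of 8 such markers (led by Pf4 and Ms4a7) ran from 22.6 to 513.8 CPM in OIR and from 36.7 to 249.8 CPM in nonOIR, and the 3 OIR libraries of lane 2 were the highest, at 442.3 to 513.8 CPM. Of the 8 markers 1 passed as higher (Ccl24), none was at 0 throughout, and their part in the Cfp result was not tested. Pf4 was also the second most similar gene to Cfp over the 16 libraries after the group means were subtracted (r = 0.89), between Lgals1 (r = 0.90) and the iron exporter gene Slc40a1 (r = 0.87). The sort left out Ly6G-positive cells, such as neutrophils, which also make properdin. Of 8 neutrophil markers 4 stayed at 3 counts or fewer in every library, S100a8 did not exceed 0.847 CPM in OIR and 0.0420 CPM in nonOIR, and the list's sum came almost wholly from Csf3r. Their part in the Cfp result was not tested.

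The promoter of Cfp (chrX:20931506-20931805, minus strand) is shown because it carries a pair of PU.1 cores (in capitals) in the 50 bases after the start. How many of all promoters hold such a pair was not counted.
Cfp promoter: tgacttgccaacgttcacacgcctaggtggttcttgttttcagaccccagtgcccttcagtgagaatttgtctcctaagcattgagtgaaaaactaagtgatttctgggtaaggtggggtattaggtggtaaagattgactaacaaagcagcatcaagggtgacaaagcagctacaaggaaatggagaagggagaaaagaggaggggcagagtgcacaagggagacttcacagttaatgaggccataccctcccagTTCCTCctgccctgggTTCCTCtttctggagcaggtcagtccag

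**Figure D2:**
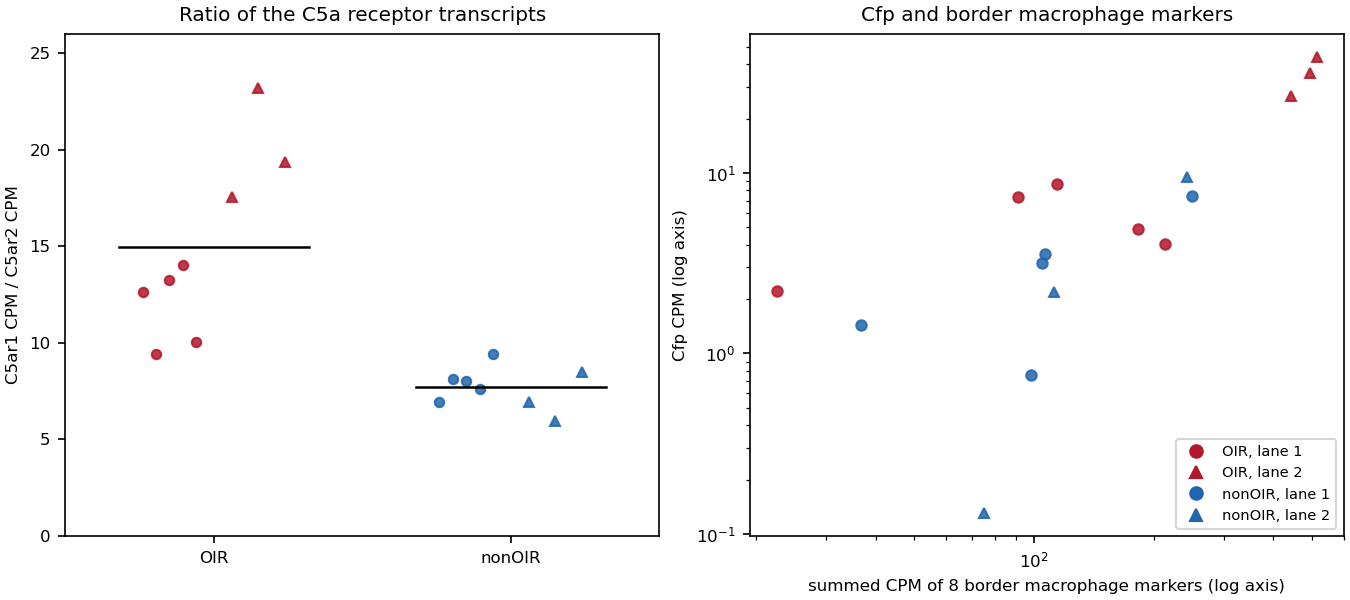
Left, C5ar1 CPM divided by C5ar2 CPM in each library, with lines at the group means: OIR libraries lie between 9.45 and 23.2 and nonOIR libraries between 5.93 and 9.44. Right, Cfp against the summed CPM of 8 border macrophage markers, both on log axes: the 3 OIR libraries of lane 2 stand highest on both axes.

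The receptors of the anaphylatoxins moved in opposite directions. C3ar1, the receptor of C3a, rose 1.46-fold, C5ar1, the signalling receptor of C5a, rose 1.32-fold, and C5ar2, the other C5a receptor, which does not couple to G proteins, fell to 0.702 of its nonOIR level. C3ar1 had 806.8, 906.5 and 1478 CPM in the lowest, median and highest OIR library, against 602.6, 740.7 and 770.3 CPM in nonOIR (log2 fold change 0.55 ± 0.12 SE, edgeR adjusted p = 0.00739). Every OIR library lay above every nonOIR library. C5ar1 had 518.7, 591.3 and 810.3 CPM in the lowest, median and highest OIR library, against 402.8, 481.7 and 527.2 CPM in nonOIR (log2 fold change 0.40 ± 0.10 SE, edgeR adjusted p = 0.0152). All 8 OIR libraries lay above the nonOIR median and 5 above the nonOIR maximum. C5ar2 had 34.96, 40.15 and 55.6 CPM in the lowest, median and highest OIR library, against 47.3, 64.1 and 69.8 CPM in nonOIR (log2 fold change -0.51 ± 0.12 SE, edgeR adjusted p = 0.00893). All 8 OIR libraries lay below the nonOIR median and 6 below the nonOIR minimum. These 3 calls were kept when any single library was left out, with log2 fold changes of 0.47 to 0.61 for C3ar1, 0.35 to 0.45 for C5ar1 and -0.57 to -0.46 for C5ar2.

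The rise of C5ar1 was larger in lane 2 than in lane 1. In lane 1 C5ar1 averaged 549.2 ± 45.0 CPM in OIR and 498.6 ± 19.3 CPM in nonOIR (SD, n = 5 each, 1.11-fold, edgeR adjusted p = 0.293), and in lane 2 738.8 ± 81.7 CPM in OIR and 420.5 ± 21.7 CPM in nonOIR (SD, n = 3 each, 1.81-fold, edgeR adjusted p = 0.000744). The interaction of lane and group passed for this gene (log2 difference 0.67 ± 0.11 SE, edgeR adjusted p = 0.0118) and for no other of the 10 (edgeR adjusted p between 0.083 and 0.985), where 0.496% of all tested genes passed. For C3ar1 the folds were 1.24 in lane 1 (edgeR adjusted p = 0.0679) and 1.90 in lane 2 (edgeR adjusted p = 0.00118), and the interaction did not pass (edgeR adjusted p = 0.083). C5ar2 was at 0.757 of its nonOIR level in lane 1 (edgeR adjusted p = 0.114) and at 0.632 in lane 2 (edgeR adjusted p = 0.0312), with an interaction at edgeR adjusted p = 0.598. With lane as a covariate all 3 receptors passed (edgeR adjusted p = 0.00121 for C3ar1, 0.00733 for C5ar1 and 0.00216 for C5ar2). The summed microglial markers were lowest in the OIR libraries of lane 2, at 38159 to 44804 CPM, against 53488 to 63417 CPM in the OIR libraries of lane 1. Among nonOIR libraries they ran from 65173 to 69723 CPM in lane 2 and from 66416 to 80702 CPM in lane 1. The part of the marker levels in the receptor results was not tested.

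C5ar1 and C5ar2 are adjacent on the minus strand of chromosome 7 (chr7:16246743-16259540 and chr7:16234585-16244154), and the ratio of C5ar1 to C5ar2 CPM averaged 14.9 ± 4.74 over OIR libraries and 7.69 ± 1.08 over nonOIR libraries (SD, n = 8 each). It ran from 9.45 to 14.0 in OIR and from 6.95 to 9.44 in nonOIR in lane 1, and from 17.6 to 23.2 in OIR and from 5.93 to 8.51 in nonOIR in lane 2. The lowest OIR library was thus just above the highest nonOIR library, both of lane 1. This ratio was formed after the values of the genes were seen and is given as a description. The promoters of the 3 receptor genes are printed to set the pair of C5a receptors and the C3a receptor beside each other: C3ar1 at chr6:122856108-122856407, C5ar1 at chr7:16259289-16259588 and C5ar2 at chr7:16244105-16244404, all on the minus strand. The capitals in C3ar1 mark TGANTCA, the AP-1 site, which 7.81% of all promoters hold. The C5ar1 promoter and this C5ar2 promoter held no match to the PU.1 core, the AP-1 site, the hypoxia response core or the interferon regulatory factor motif, each searched on both strands. The hypoxia core was ACGTG (in 19.6% of promoters), and the interferon motif was a GAAA run followed, after any 2 bases, by the same run (in 3.44%). RefSeq promoters were at hand for 7 of the 10 genes, and none of these promoters held either motif. RefSeq lists a second C5ar2 start, whose promoter (chr7:16242282-16242581, not printed) held 1 PU.1 core.
C3ar1 promoter: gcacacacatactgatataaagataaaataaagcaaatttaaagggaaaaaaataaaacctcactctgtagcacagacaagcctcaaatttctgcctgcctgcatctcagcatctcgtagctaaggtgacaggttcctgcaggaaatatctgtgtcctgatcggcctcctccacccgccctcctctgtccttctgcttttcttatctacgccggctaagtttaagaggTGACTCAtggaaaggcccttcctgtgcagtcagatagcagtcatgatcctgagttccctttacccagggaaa
C5ar1 promoter: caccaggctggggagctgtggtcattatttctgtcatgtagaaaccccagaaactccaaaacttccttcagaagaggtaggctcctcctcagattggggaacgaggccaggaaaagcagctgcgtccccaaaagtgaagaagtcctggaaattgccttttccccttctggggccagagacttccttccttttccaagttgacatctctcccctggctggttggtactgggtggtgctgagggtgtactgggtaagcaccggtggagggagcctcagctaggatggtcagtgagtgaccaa
C5ar2 promoter: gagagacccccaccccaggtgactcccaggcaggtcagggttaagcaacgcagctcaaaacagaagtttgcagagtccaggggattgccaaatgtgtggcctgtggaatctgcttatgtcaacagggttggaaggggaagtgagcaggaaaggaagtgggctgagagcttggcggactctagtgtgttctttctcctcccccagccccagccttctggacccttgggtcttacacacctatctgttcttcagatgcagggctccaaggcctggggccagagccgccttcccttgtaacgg

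**Figure D3:**
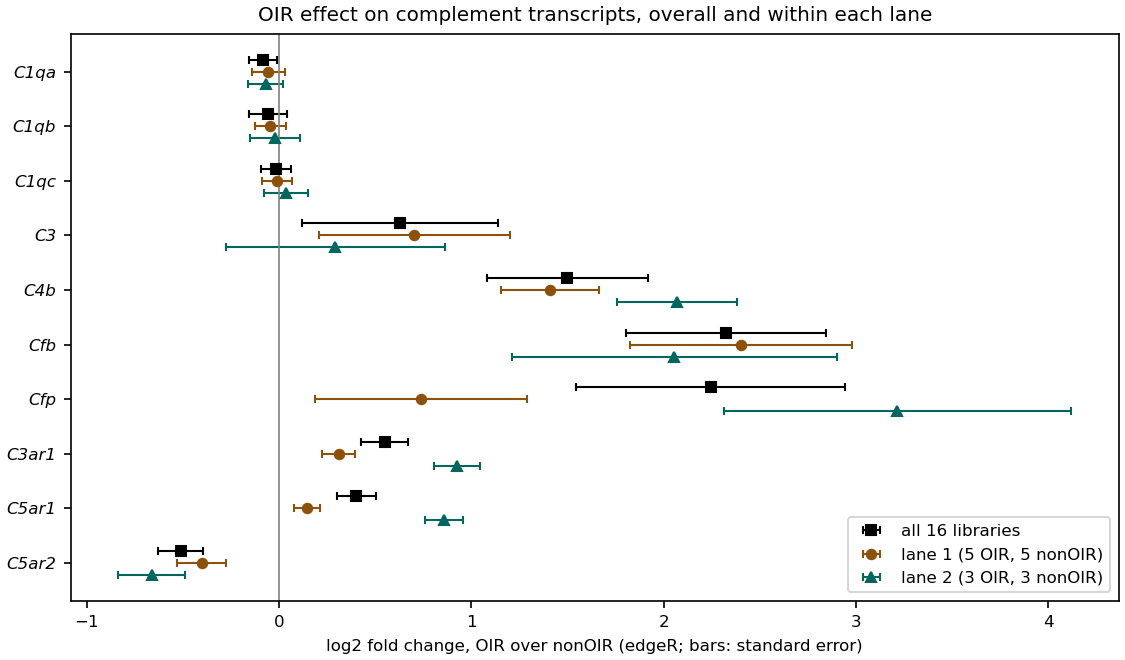
Log2 fold change of OIR over nonOIR with its standard error for each complement gene, over all 16 libraries and within each lane. The C1q chains lie near 0 in all fits. C3, C4b, Cfb, Cfp, C3ar1 and C5ar1 lie above 0 in both lanes, and C5ar2 lies below 0 in both. C4b, Cfp, C3ar1, C5ar1 and C5ar2 have their larger changes in lane 2, and the interaction of lane and group passed for C5ar1 alone.

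Across the set, the lanes changed which genes passed. With lane as a covariate 4 of the 10 rose and 1 fell, where 17.3% of all tested genes passed. Within lane 1, C4b and Cfb passed, both higher, where 3.33% of tested genes passed in either direction, and within lane 2 C4b, Cfp, C3ar1 and C5ar1 rose and C5ar2 fell, where 15.4% passed. The lanes themselves differed for 4 of the 10 genes with group in the fit (lower in lane 2 for C1qb, C3 and C4b, higher for C3ar1), beside 24.8% of all tested genes.

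Per kilobase of annotated exon, the order of levels was nearly the same in both groups. C1qb stood highest at 9746 ± 1329 CPM per kb in OIR and 10134 ± 1402 in nonOIR, before C1qa at 5551 ± 437.2 in OIR and 5877 ± 569.2 in nonOIR and C1qc at 4350 ± 401.0 in OIR and 4394 ± 462.8 CPM per kb in nonOIR (SD, n = 8 each). The receptors followed, with C5ar1 at 241.3 ± 43.8 CPM per kb in OIR and 182.6 ± 17.3 in nonOIR. C3ar1 had 237.5 ± 56.7 in OIR and 162.3 ± 17.98 in nonOIR, and the difference between C5ar1 and C3ar1 was not tested. C5ar2 was far lower, at 12.2 ± 2.25 CPM per kb in OIR and 17.4 ± 2.17 in nonOIR. Cfp (9.62 ± 9.41 in OIR, 2.03 ± 1.91 in nonOIR) and C4b (7.42 ± 4.14 in OIR, 2.63 ± 1.66 in nonOIR) exchanged places between the groups within their spread. C3 (1.38 ± 1.03 CPM per kb in OIR, 0.891 ± 0.680 in nonOIR) and Cfb (1.07 ± 1.06 in OIR, 0.212 ± 0.0995 in nonOIR) came last. These lengths join the exons of all annotated transcripts, so a gene with long, rarely used exons is set too low.

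Other genes of the cascade were mostly too low to test. Of 46 listed genes 17 were tested, 2 rose (Masp1 and C1qbp), 1 fell (Cr1l) and 14 did not pass, with a median log2 fold change of 0.29. Of all tested genes 6.39% rose, 4.56% fell and 10.9% passed in either direction, so these few calls, in all and by list, are not read as a result about the lists. With lane as a covariate 5 were higher: Masp1 and C1qbp again, and also C1ra, Itgax and Calr. In that fit Cr1l was again lower (edgeR adjusted p = 0.0212), and of all 12496 tested genes 1210 were higher and 949 lower. Itgax passed in lane 2 (edgeR adjusted p = 0.00454) and not in lane 1 (edgeR adjusted p = 0.276). Among 14 initiating genes of the classical and lectin pathways 4 were tested and 1 rose. That was Masp1, a lectin pathway protease, at 6.46 to 15.0 CPM in OIR and 3.62 to 5.00 CPM in nonOIR, with no overlap (log2 fold change 1.30 ± 0.20 SE, edgeR adjusted p = 0.000467). Masp1 passed in lane 1 (edgeR adjusted p = 0.0391) and in lane 2 (edgeR adjusted p = 0.00599). Fcna (ficolin A) had 7.94 ± 5.09 CPM in OIR and 3.02 ± 2.27 CPM in nonOIR, and C2 had 3.18 ± 1.14 CPM in OIR and 1.95 ± 1.17 CPM in nonOIR (SD, n = 8 each, edgeR adjusted p = 0.11 and 0.255). In lane 2, where Fcna had 9.01 to 12.7 CPM in OIR and 0.529 to 1.87 CPM in nonOIR, it passed (edgeR adjusted p = 0.00225). Fcna did not pass in lane 1 (1.41-fold, edgeR adjusted p = 0.767), nor did its interaction of lane and group (edgeR adjusted p = 0.153). In lane 1 Fcna ran from 0.761 to 15.2 CPM in OIR and from 1.89 to 7.25 CPM in nonOIR. The OIR libraries of lane 2 stood highest in border macrophage markers. The highest Fcna value, 15.2 CPM, was that of OIR replicate 1 in lane 1, where these markers summed to 182.6 CPM. The part of these markers in the Fcna result was not tested. The proteases that act with C1q, named here after their values were seen, were scarce: C1ra had 1.92 ± 1.03 CPM in OIR and 0.661 ± 0.451 CPM in nonOIR (SD, n = 8 each, edgeR adjusted p = 0.0985, but 0.0342 with lane as a covariate), and C1s1 had 3 reads in all of OIR and 5 in all of nonOIR. C1ra shares 48% of its 50-base windows with C1rb, C1s1 21.8% with C1s2 and C2 38.7% with Gm20547, so their counts are uncertain.

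Of 8 genes for factor D and the terminal components 1 was tested, C8g, whose OIR libraries averaged 1.56 ± 0.490 CPM and nonOIR libraries 0.995 ± 0.522 CPM (SD, n = 8 each, edgeR adjusted p = 0.379). Hc, the gene for C5, had 2 reads in all of OIR and 2 in all of nonOIR. C6 had 201 reads in OIR, 108 of them in replicate 1, and 29 in nonOIR. Of 7 soluble regulators 3 were tested. Vtn (vitronectin) had 3.19 ± 2.52 CPM in OIR and 4.33 ± 3.30 CPM in nonOIR (SD, n = 8 each, edgeR adjusted p = 0.75). Of 8 membrane regulators 2 were tested. Cr1l (Crry, the rodent membrane inhibitor of C3 convertases) fell, with 119.8 to 174.1 CPM in OIR and 138.1 to 212.9 CPM in nonOIR (log2 fold change -0.36 ± 0.11 SE, edgeR adjusted p = 0.0386). Leaving out any 1 of 9 libraries (OIR replicates 3, 5, 6, 7 and 8, nonOIR replicates 5, 6, 7 and 8) ended the call, with edgeR adjusted p up to 0.0855. Cr1l did not pass in lane 1 (-0.15, edgeR adjusted p = 0.598), and passed in lane 2 (-0.63, edgeR adjusted p = 0.00349). Cd59a, an inhibitor of the membrane attack complex, had 1.38 ± 0.820 CPM in OIR and 1.26 ± 0.652 CPM in nonOIR (SD, n = 8 each, edgeR adjusted p = 0.892).

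Of 9 genes for complement receptors and C1q-binding proteins 7 were tested and 1 rose. C1qbp, a mostly mitochondrial protein that can bind C1q, had 74.5 to 91.0 CPM in OIR and 57.4 to 73.5 CPM in nonOIR, with no overlap (log2 fold change 0.29 ± 0.08 SE, edgeR adjusted p = 0.0184). Its edgeR adjusted p was 0.165 within lane 1, 0.0545 within lane 2 and 0.0675 with no low-count filter, so the call was lost in each. Calr (calreticulin) had 1227 ± 177.7 CPM in OIR and 1042 ± 96.2 CPM in nonOIR, and Itgb2, the shared chain of complement receptors 3 and 4, had 939.9 ± 116.3 CPM in OIR and 949.7 ± 163.7 CPM in nonOIR (SD, n = 8 each, edgeR adjusted p = 0.107 and 0.954). Calr passed with lane as a covariate (edgeR adjusted p = 0.0447) and in lane 2 (edgeR adjusted p = 0.00644), not in lane 1 (edgeR adjusted p = 0.49). Of the genes too low to test, Hc, C6 and Vsig4 were named after their values were seen. Vsig4, a receptor for C3 fragments on tissue macrophages, had 0 counts in all 8 OIR libraries, which allows up to 3 counts in each, and 36 counts in nonOIR, all in replicate 4.

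**Figure D4:**
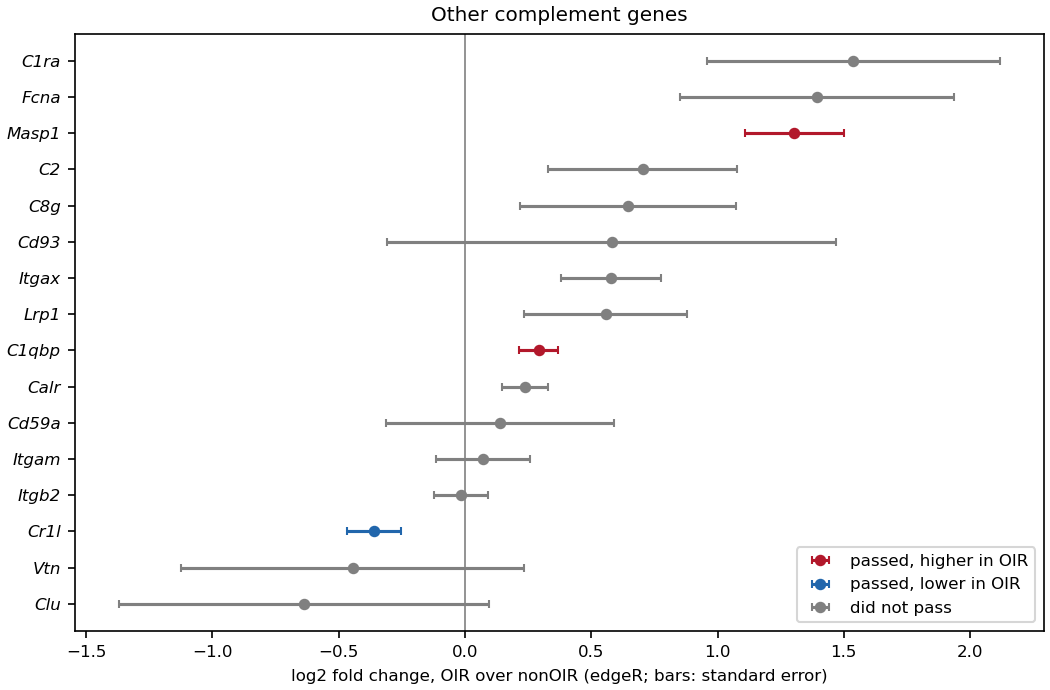
Log2 fold change of OIR over nonOIR with its standard error for 16 of the 17 other complement genes that could be tested, ordered by size. Masp1 and C1qbp passed as higher, Cr1l passed as lower, and the widest bars (Cd93, Clu and Vtn) belong to genes that averaged 1.52 to 3.76 CPM over all libraries.

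Genes that followed a complement gene most closely within groups were sought among 7809 genes with a mean of at least 10 CPM, by Pearson's r of log2(CPM + 1) over the 16 libraries after the group means were subtracted. Libraries share lanes and differ in depth, so r is a description. For C4b the closest were Map7d1 (r = 0.97), Mybbp1a (0.96) and Zfp385a (0.96), which fell to 0.80, 0.82 and 0.81 once lane means were also subtracted. For C3ar1 they were Clec4n (0.89), S1pr1 (0.88) and Igf1 (0.87), and with lane means subtracted r was 0.66, 0.83 and 0.56. For C5ar1 they were Rbm17 (0.86), Prmt7 (0.86) and Fam20c (0.84), with 0.59, 0.47 and 0.34 after lane. For C5ar2 they were P3h3 (0.83), Hps3 (0.78) and Dhx33 (0.77). C1qa was closest to Ten1 (0.84), Comtd1 (0.83) and the lysosomal sterol carrier gene Npc2 (0.82), C1qb to Manbal and Tmed3 (0.89 each), and C1qc to Fcgrt (0.88), the neonatal Fc receptor gene, and then to C1qb. C3ar1 and C5ar1 had r = 0.73 with each other, 0.39 with lane means subtracted, and C5ar1 and C5ar2 had r = -0.33, or 0.08 with lane means subtracted.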

How the data were processed

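The deposited table holds 54532 genes in 16 libraries of sorted retinal microglia. Per the labels' protocols, the low-input kit amplified cDNA without molecular identifiers and does not mark strand, and reads were single and 50 bases long. Per the file headers, its raw columns are read counts, and their values are whole numbers. Tools named in the submitters' processing notes, without roles, are STAR 2.6.0b-1, FastQC 0.72, DESeq2 2.11.40.2 and featureCounts 1.6.2, on mm10. No annotation is named in the sources used here. The signal columns deposited by the authors are counts divided by 1 factor per library, and their base mean is such a signal averaged. The authors' log2 fold change, its standard error, the Wald score and the p-values were only compared with the calls made here.

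Genes with enough reads (filterByExpr) were scaled by TMM and compared by edgeR 4.0.16 under R 4.3.3 (robust quasi-likelihood, two-sided, Benjamini-Hochberg adjusted over 12496 genes, threshold 0.05). The standard error is the log2 fold change over the root of F. The lane is a code in the description label, whose meaning beyond that is not stated. Coordinates and exon lengths are GENCODE M21 (54495 identifiers matched), and promoters of 7 of the 10 genes are RefSeq's. No promoter was at hand for C1qa, C4b and Cfb, so these were not searched. Alternatives covered scaling, filters, lane, a replicate block, DESeq2 1.42.0, limma-voom (limma 3.58.1) and the omission of each library. The fit was tested on simulated data. It found 23.9% of planted 1.5-fold changes, 59.7% of 2-fold and 90.9% of 4-fold changes, and 7 of its 123 calls were false. A gene that did not pass may therefore still differ. No pair of libraries within a group agreed within sampling noise (lowest chi-square per gene 15.4). A floor for a count of 0 covers counting error alone.

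The members and lists were chosen with earlier results of these data known. The named genes are the 10 members, the called genes of each other complement list with its 2 highest others, the 2 highest markers of each marker list and, per member of at least 10 CPM in a group, the 3 genes most alike. Values of some genes that this rule names are not reported here.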

Additional observations from a re-analysis of the deposited data

Results flagged for a closer look

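Each of the 10 genes was screened in each group for a library far from the others, 20 screens in all, of which chance flags about 1 in 20. C1qb in nonOIR replicate 7 stood at 7746 CPM, below the other nonOIR libraries at 10568 to 13057 CPM. Cfb in OIR replicate 3 stood at 10.15 CPM, above the other OIR libraries at 0.924 to 3.32 CPM. The OIR effect on C5ar1 differed between the lanes (edgeR adjusted p of the interaction = 0.0118), with a 1.81-fold change in lane 2 and a 1.11-fold change in lane 1.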

How the results depend on the processing

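Over all alternatives 629 of the recomputed values kept their direction and side of the threshold, 39 lost their call, 7 gained one, 31 counts moved by more than 1.5 times and 22 values reversed. With library totals only, 1020 genes were higher and 364 lower, and 4 other complement genes were higher and 0 lower. C1qb (log2 fold change 0.0133), C1qc (0.0564) and Itgb2 (0.0556) then reversed, none of them called. With no low-count filter 634 genes were higher and 343 lower, 3 members were higher and 0 other complement genes were lower. With lane as a covariate 1210 genes were higher and 949 lower, 5 other complement genes were higher, and Cd59a was at -0.0269. In lane 1 alone 276 genes were higher and 141 lower, 2 members were higher and 0 lower, 1 other complement gene was higher and 0 lower, and Cd59a was at -0.70. In lane 2 alone 1260 genes and 4 other complement genes were higher, C1qc was at 0.0370 and Itgb2 at 0.17. DESeq2 called 5 other complement genes higher, where it called 1080 of all 12496 tested genes higher and 779 lower. Fewer samples and, without a filter, more tests enter some of these fits by construction, and beyond that the cause was not tested.

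Leaving out each library gave 582 to 908 genes higher, 353 to 648 lower, 3 to 5 members higher, 1 lower throughout, 2 to 3 other complement genes higher and 0 to 1 lower. The log2 fold change ran from -0.0561 to 0.0168 for C1qc, from -0.0273 to 0.36 for Cd59a and from -0.0610 to 0.0419 for Itgb2.

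Same-numbered OIR and nonOIR libraries correlated at -0.02 to 0.20, so the numbers are not shown to pair the samples. With the replicate block 965 genes were higher and 714 lower, 4 members were higher and 1 lower, and 0 other complement genes were lower (Cfp at edgeR adjusted p = 0.0987, Cr1l at 0.0654). The authors' deposited table gave an adjusted p under 0.05 to the same 6 members. Its log2 fold changes were below those of edgeR for C4b (1.03), Cfb (1.39) and Cfp (0.87). They were 0.53 for C3ar1, 0.40 for C5ar1 and -0.48 for C5ar2, near those of edgeR. Depth limits Cfb, with 3 to 22 counts in a nonOIR library.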
